A study of Mus musculus with 4 samples.

Results

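Distal ATACseq peaks that lie far from H2A.Z were examined in the adult mouse liver. They were chosen by 2 distances. A peak of the WT ATACseq list was kept when its centre was more than 5 kb from the transcription start site (TSS) of every annotated gene, and when no H2A.Z peak of the same liver lay within 1 kb of it. The rule left 2169 of the 10060 WT ATACseq peaks on chromosomes 1 to 19 (21.6%), with 3 to 8 Mb of chromosome 14 left out. Another 1576 peaks were distal with H2A.Z within 1 kb, 931 were near a TSS and far from H2A.Z, and 5384 were near a TSS with H2A.Z.

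ATACseq uses the Tn5 transposase to cut DNA that is free of nucleosomes, and H2A.Z ChIPseq read out which DNA, cut with micrococcal nuclease, carries this histone variant. The WT mouse was Uhrf1 fl/fl without Cre. The Uhrf1hepKO mouse was Uhrf1-fl/fl;Alb:Cre, in which the albumin promoter drives Cre and so deletes Uhrf1, a factor that maintains DNA methylation, in hepatocytes. Both mice were males on a C57Bl/6 background, 8 to 12 weeks old, and 1 liver of each genotype was used for both assays, which gives 4 libraries with 1 per group. No test across samples is possible with 1 library per group, so no p-value is given. The 95% intervals beside shares (Wilson) and beside differences of shares (Newcombe) cover counting error only and leave the spread between mice unknown.

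The peak lists hold no read counts, but the most frequent fold of the WT ATACseq list, 3.52, has the p-value of 8 reads where the local background is 1.56, and 109 of the distal peaks far from H2A.Z had exactly this fold. In the Uhrf1hepKO ATACseq list the most frequent fold, 3.33, has that of 9 reads where the background is 2.0. A site that is absent from a list was not detectable at this depth, which does not make the site closed. The labelled tissue could not be checked through its markers. None of 5 hepatocyte genes (Alb, Ttr, Apoa1, Fga and Serpina1a) had a WT ATACseq peak within 5 kb of its TSS, and Sox9 was the only one of 17 genes of Kupffer cells, endothelial cells, stellate cells and cholangiocytes that had one. Accessibility in whole liver comes from all of its cells, and a site open in few cells cannot be told apart from a site that is weakly open in many.

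As background, accessible sites far from promoters are mostly enhancers, where transcription factors bind and act on promoters at a distance, or insulators, where the zinc finger protein CTCF binds and anchors chromatin loops. Liver enhancers are known for the binding of hepatocyte factors such as HNF4A, FOXA, C/EBP and HNF1. H2A.Z is commonly placed in the nucleosomes that flank active promoters and many enhancers. The sequences that follow are shown because their motifs stand for these factors. They are given in GRCm38, on the plus strand, from the RefSeq genome. For each motif the peak has the highest WT fold among those that hold it, were also called in Uhrf1hepKO, were under 50% recurring sequence and were not mitochondrial, with 251 bp about the centre of the peak and the motif in capitals.

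The CTCF motif lay in an intron 17123 bp downstream of the TSS of Zc2hc1c, at chr12:85305589-85305839, under a peak of fold 8.29 in WT and 5.78 in Uhrf1hepKO.
CTCF: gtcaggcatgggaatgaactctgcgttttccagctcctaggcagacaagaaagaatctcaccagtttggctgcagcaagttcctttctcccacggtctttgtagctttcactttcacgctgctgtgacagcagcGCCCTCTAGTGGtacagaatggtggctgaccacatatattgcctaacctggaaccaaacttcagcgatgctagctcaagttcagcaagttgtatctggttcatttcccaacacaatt
The motif of HNF1, a homeobox factor of hepatocytes, lay 26005 bp upstream of Chst3, a sulfotransferase gene, at chr10:60245140-60245390, under an intergenic peak of fold 8.90 in WT and 6.16 in Uhrf1hepKO.
HNF1: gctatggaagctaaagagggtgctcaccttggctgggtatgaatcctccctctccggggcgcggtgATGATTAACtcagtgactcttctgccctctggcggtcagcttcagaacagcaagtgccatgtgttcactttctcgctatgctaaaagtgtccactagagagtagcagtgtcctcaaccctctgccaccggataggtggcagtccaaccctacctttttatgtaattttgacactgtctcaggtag
The motif of FOXA, the forkhead pioneer factors of liver, lay 19138 bp upstream of Fnbp1l at chr3:122638728-122638978, under an intergenic peak of fold 7.86 in WT and 5.70 in Uhrf1hepKO. The same window holds the CTCF motif.
FOXA: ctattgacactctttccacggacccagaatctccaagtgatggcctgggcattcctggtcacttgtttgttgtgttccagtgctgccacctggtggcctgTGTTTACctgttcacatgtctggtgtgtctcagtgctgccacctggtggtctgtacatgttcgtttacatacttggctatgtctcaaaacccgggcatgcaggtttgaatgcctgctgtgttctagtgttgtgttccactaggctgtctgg
The window with the motif of C/EBP, leucine zipper factors of hepatocytes, was at chr16:10975038-10975288, about an intronic peak 85782 bp upstream of Snn. The motif itself lies in the window but outside the called peak, which runs from 10975069 to 10975257. The fold of this peak was 18 in WT and 22.5 in Uhrf1hepKO. Of the 32-mers of this peak, 36.1% recur in the assembled genome. The window repeats a short unit along its length, and the peak belongs to a family of AT-rich sequence described below. It is therefore not an example of a clearly single copy site.
C/EBP: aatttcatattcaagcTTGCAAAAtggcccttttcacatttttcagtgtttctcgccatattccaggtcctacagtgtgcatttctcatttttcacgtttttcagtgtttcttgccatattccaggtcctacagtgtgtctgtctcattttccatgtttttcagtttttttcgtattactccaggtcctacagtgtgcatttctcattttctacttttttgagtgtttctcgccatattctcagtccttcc

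The last sequence was chosen after the values were seen, since its peak had the highest fold of all. It lies at chr2:69355558-69355648, in the peak nearest to Abcb11, the bile salt export pump of hepatocytes, and all 95 of the 32-mers of that peak are also found in mitochondrial DNA, so none of its letters is in capitals. Its fold was 38.0 in WT and 39.1 in Uhrf1hepKO.
Mitochondrial: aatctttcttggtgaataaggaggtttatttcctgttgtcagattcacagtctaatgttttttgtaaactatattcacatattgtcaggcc

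The distal peaks far from H2A.Z were narrow and weak. Their median width was 172 bp, with 141 bp at the 25th and 245 bp at the 75th percentile, and their folds had a median of 3.94, with 3.63 and 4.63 at the same percentiles. A fold is the enrichment over local background given by the authors' peak caller, and is not scaled between libraries. For distal peaks with H2A.Z the medians were 210 bp and 4.20, and for all WT ATACseq peaks 233 bp and 4.34. The 3 peaks just inside the limit of distance from a TSS were those nearest to Ctcfl at 5018 bp, to Unc5b at 5031 bp and to Fbxl18 at 5033 bp, and the first peak outside it was that near Rflna at 4989 bp. The first just inside the limit of distance from H2A.Z was near Ccdc115, 1004 bp from an H2A.Z peak, and the first outside it was in Arl15 at 978 bp. These distances only describe the rule.

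The peaks were of several kinds of sequence. Each 32-mer under a peak was looked for on chromosomes 1 to 19, X and Y, and in mitochondrial DNA. Of the 2169 peaks, 1589 were mostly single copy (under 50% of the 32-mers recurred), 556 were recurring sequence of other kinds, 19 were telomere repeat over at least 50% of their length and 5 had at least 50% of their 32-mers in mitochondrial DNA. At least 50% of the 32-mers recurred in 26.6% of the distal peaks far from H2A.Z and in 4.06% of the distal peaks with H2A.Z, a difference of 22.5 percentage points (20.4 to 24.6). Repeat-masked bases, the lower-case bases of the reference, made up 29.3% of the sequence far from H2A.Z and 10.9% with it, against 33.5% of chromosomes 1 to 19.

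Of the 10 peaks of highest fold, 4 were telomere repeat, 5 were mitochondrial and 1, upstream of Fam172a, was recurring sequence of another kind (fold 26.3 in WT and 28.5 in Uhrf1hepKO). A fold of at least 10 was found for 50 of the distal peaks far from H2A.Z, and all 50 overlapped a Uhrf1hepKO ATACseq peak. So did all 90 WT ATACseq peaks of such fold, whatever their class. Of the 50, 11 were mostly single copy and 2 held no recurring 32-mer, both of them among the mitochondrial peaks. Without recurring or mitochondrial 32-mers, the highest fold in both lists was that upstream of Chst3, 8.90.

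**Figure D1:**
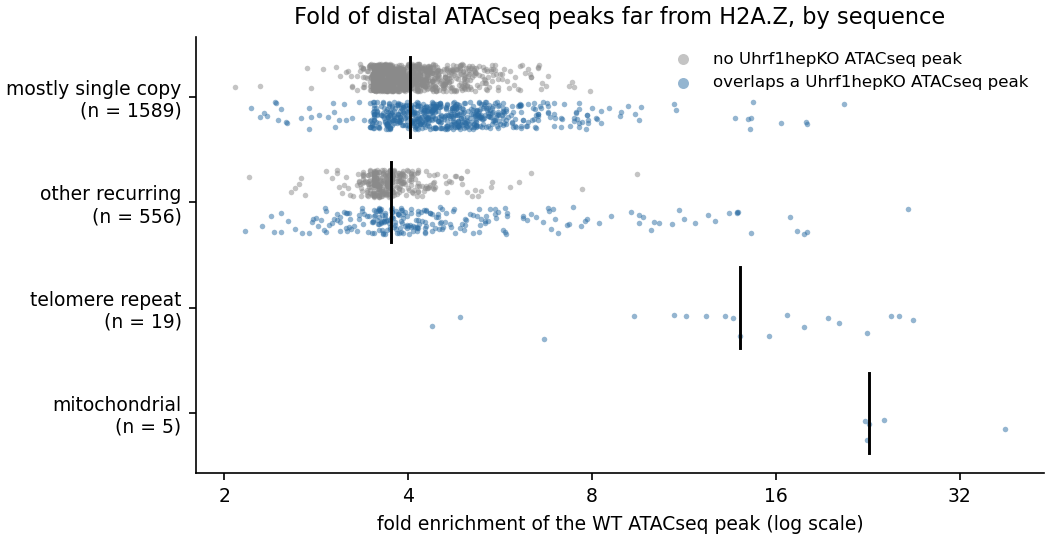
Fold enrichment in the WT ATACseq list (horizontal, log scale) of each distal peak far from H2A.Z, by the kind of its sequence. Each point is a peak, blue where it overlaps a Uhrf1hepKO ATACseq peak and grey where it does not, and the black line is the median, which was 4.03, 3.75, 14 and 22.7 from top to bottom.

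The 19 telomere repeat peaks lay on 15 chromosomes, with a WT fold from 4.37 to 26.8 (median 14) and a Uhrf1hepKO fold from 3.89 to 27.7 (median 15.8). All 19 were called in both livers. At 11 of them the peak ended within 4 to 18 bp of the run of unknown bases that closes the assembled chromosome, where 96.0 to 99.6% of the peak was TTAGGG. The other 8 lay inside chromosomes, at least 1873831 bp from such a run, and their folds (4.37 to 14) overlapped those at the ends (11.4 to 26.8). Interior examples lay 44197 bp from the TSS of Lama1, a laminin gene (fold 14 in WT and 14.2 in Uhrf1hepKO), and 42832 bp from Morc3 (9.36 and 10.3). The genes nearest to the 4 of highest fold were Cr2, Gm21060, A630089N07Rik and Wls. How reads with several placements were treated is not given in the sources used here, so the place of such a fold is uncertain.

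The 5 mitochondrial peaks were called in both livers. The peak near Abcb11 had a fold of 38.0 in WT and 39.1 in Uhrf1hepKO. That near Gm5426 had 24.1 and 24.9, with 53.2% of its 32-mers in mitochondrial DNA. That near G6pd2 had 22.7 and 22.9, that near Galc 22.6 and 23.9, and that near Nxph1 22.4 and 22. The last 3 lay at least 941620 bp from the TSS of the gene, and none of the 5 had an H2A.Z peak within 1 kb in either liver. Of all WT ATACseq peaks, 10 held a mitochondrial 32-mer. These 5 were among them, none was a distal peak with H2A.Z, and the rest lay near a TSS.

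Another kind of recurring sequence was spread unevenly over the genome. In 190 of the peaks (8.76%) the median 32-mer was found at least 1000 times, telomere repeat left out, and 162 of these 190 (85.3%, interval 79.5 to 89.6%) lay on chromosomes 1, 10, 11 and 12. These chromosomes hold 23.1% of the length of chromosomes 1 to 19 and 20.8% of the mostly single copy peaks far from H2A.Z (interval 18.9 to 22.9%), and they are the first 4 in alphabetical order of name. Chromosome 1 had 71, chromosome 10 had 43, chromosome 11 had 28 and chromosome 12 had 20, and no other chromosome had more than 4. The same rule in the Uhrf1hepKO lists gave 413 such peaks, of which 373 (90.3%, interval 87.1 to 92.8%) lay on the same 4 chromosomes. Of the 190, 51 (26.8%) overlapped a Uhrf1hepKO ATACseq peak, 36 of 162 on these 4 chromosomes and 15 of 28 on the other 15. Their median fold was 3.71, and what set their places was not tested. The missing account of reads with several placements also limits what these chromosome counts mean. High-copy sequence of this kind made up 0.254% of the distal peaks with H2A.Z and was in none of the 5384 peaks near a TSS with H2A.Z, which allows a share of up to 0.0713%.

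**Figure D2:**
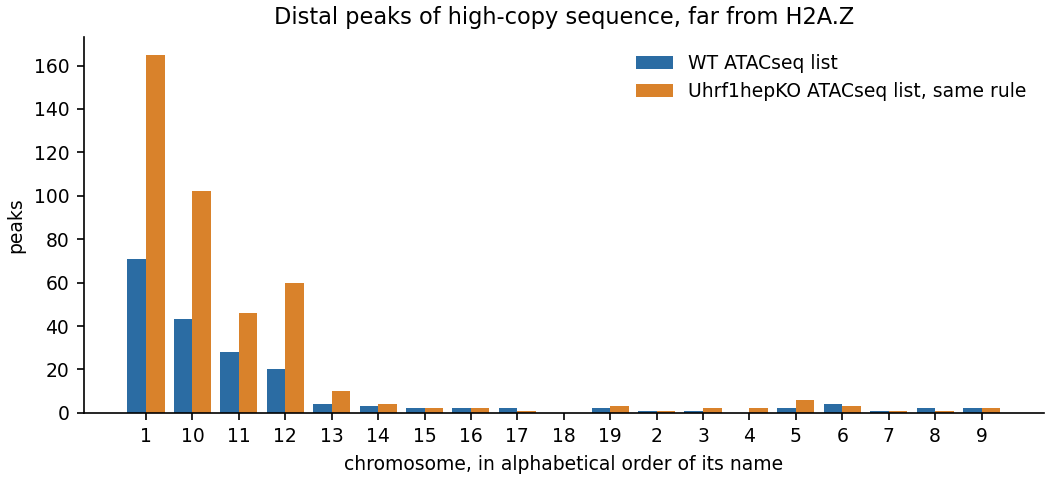
Number of distal ATACseq peaks far from H2A.Z whose median 32-mer was found at least 1000 times (vertical), on each chromosome in alphabetical order of its name (horizontal), for WT in blue and for the same rule in the Uhrf1hepKO lists in orange. Bars of 71 and 165 stand at chromosome 1, and the bars beyond chromosome 12 reach at most 10.

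Peaks that share at least 20% of the 14-mers of the smaller one were joined into families, and 1763 of the 2169 (81.3%) stood alone and the rest fell into 57 families. A family of 31 peaks, 29 of them mostly single copy, had 27 members within 400 kb of the first assembled base of its chromosome, beside the centromere, where the nearest genes included Scaf8, Olfr161, Hnf4g and Vmn1r2. Of these 31, 26 were also called in Uhrf1hepKO, and the highest fold was that in an intron 342465 bp from the TSS of Gfra1, the GDNF receptor (17.9 in WT and 17.8 in Uhrf1hepKO). In all, 50 of the peaks lay within 400 kb of the first assembled base, which is 2.31% of them in 0.316% of the sequence, and 35 of the 50 (70.0%) were called in both livers. The intervals of this share (1.75 to 3.03%) and of that of distal peaks with H2A.Z (1.46%, 0.974 to 2.18%) overlap. The 10 genes nearest to the most peaks were partly of this kind. Scaf8, Gm15319, Gm21119 and Gpm6a each had 11 peaks, Gm31371 had 10, Vmn1r2 had 9, Olfr161 had 8, Hnf4g and Gm2244 had 7 each, and Sfi1 had 6. At Gm15319, Gm21119, Gpm6a and Gm2244 none of the peaks was mostly single copy.

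A smaller family joined 7 peaks of AT-rich sequence, with a median GC content of 37.0%. It held the peaks near Cdk5rap2, a centrosome protein gene (fold 20.7 in WT and 23.6 in Uhrf1hepKO), Snn (18 and 22.5), Nbea (16.3 and 14.5), Smc5, a subunit of a chromosome maintenance complex (8.94 and 10.1), Nkx6-3 (7.55 and 7.72), Spag17 (6.78 and 6.30) and Vmn1r2 (3.79 and 4.0). All 7 were called in both livers. All 7 also counted as mostly single copy, but copies were looked for only in assembled chromosomes and mitochondrial DNA. The window printed above for Snn repeats a short unit along its length. Whether the family has further copies in unassembled sequence was not tested. The folds of its peaks therefore cannot be taken as those of single copy sites. At Cdk5rap2, Snn, Nbea and Vmn1r2 the peak overlapped a Uhrf1hepKO H2A.Z peak of low fold, from 1.68 to 1.87, where the median of that list was 5.35, and the nearest WT H2A.Z peak was at least 17115 bp away.

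Of the distal peaks far from H2A.Z, 852 of 2169 (39.3%, interval 37.2 to 41.4%) overlapped a Uhrf1hepKO ATACseq peak by at least 1 bp, where 61.1% of all WT ATACseq peaks did. Among distal peaks with H2A.Z the share was 53.5%, 14.2 percentage points higher (11 to 17.4). In mostly single copy sequence the shares were 36.8% far from H2A.Z and 52.7% with it, a difference of -15.9 points (-19.3 to -12.4). The median widths of these peaks were 168 bp and 209 bp. Widths were not matched, and what set the difference was not tested. Within each of 4 classes of WT fold the difference was also negative. In the lowest of 4 equal classes of WT fold, up to 3.83, 19.1% of the mostly single copy peaks far from H2A.Z and 31.4% of those with H2A.Z were called in Uhrf1hepKO (difference -12.3 points, -17.9 to -6.81). In the highest class, above 5.18, the shares were 74.3% and 82.8% (difference -8.49 points, -15.8 to -1.21). In the classes between, the shares were 30.1% and 44.8%, and then 52.0% and 63.7%, so both were larger in each higher class.

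**Figure D3:**
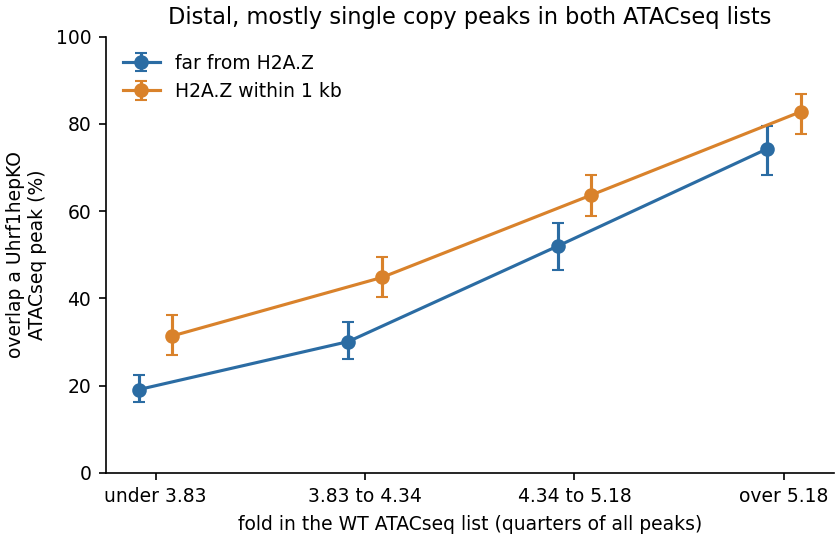
Share of mostly single copy distal peaks that overlap a Uhrf1hepKO ATACseq peak (vertical, %), in 4 equal classes of the WT fold of all peaks (horizontal), for peaks far from H2A.Z in blue and with H2A.Z within 1 kb in orange. Bars are Wilson 95% intervals. The blue points run from 19.1 to 74.3% and lie below the orange points, which run from 31.4 to 82.8%.

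In the 852 peaks called in both livers the median fold was 4.43 in WT and 4.22 in Uhrf1hepKO, each over its own background. The other 1317 had a median WT fold of 3.79, and 38 of them (2.89%) had a Uhrf1hepKO peak within 1 kb. The highest folds without overlap were near Rtl10 (9.49, in an intron, all of its 32-mers recurring), near Arl4c, a small GTPase gene (7.95, 43194 bp from the TSS), near Emp1 (7.70, all recurring), near Slc35f5 (7.47) and near Ell2, a transcription elongation factor gene (7.41, in an intron). At these 5 sites the nearest Uhrf1hepKO ATACseq peak was at least 34360 bp away.

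Among the peaks with no recurring or mitochondrial 32-mer, a set added after the values were seen, the 10 of highest WT fold in both lists held the CTCF motif in 6 cases. These were the peaks near Zc2hc1c (8.29 in WT and 5.78 in Uhrf1hepKO), Plcg2, a phospholipase gene (8.14 and 7.77), Map3k21 (8.00 and 5.42), Hps1 (7.88 and 4.86), Cabp1 (7.87 and 7.11) and Fnbp1l (7.86 and 5.70). The other 4 lay near Chst3, Zdhhc25 (8.28 and 5.41), Scn3b, a sodium channel subunit gene (8.12 and 7.45), and Etnk1 (7.81 and 6.08). By the rule that allowed up to 50% recurring sequence, the leading names were instead Abcb11, Gm5426, Galc, Cdk5rap2, Snn, Gfra1, Nbea, Hic2 (14.7 and 11.9), Ggh (14.6 and 13.8) and Apbb1ip (14.5 and 15.2).

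The CTCF motif was the most over-represented of the 17 motifs searched. It was present, on either strand, in the 251 bp about the centre of 173 of the 2169 peaks (7.98%), of which 167 were mostly single copy. It was held by 10.5% of the mostly single copy peaks far from H2A.Z (interval 9.10 to 12.1%), by 5.62% of the mostly single copy distal peaks with H2A.Z, and by 0.122% of all 9545087 windows of the same length on chromosomes 1 to 19. The difference between the first pair was 4.89 percentage points (2.98 to 6.81). The motif centre was within 50 bp of the peak centre in 106 of the 173 (61.3%, interval 53.8 to 68.2%), while 41.7% of the possible positions in the window lie that near. The 173 peaks had a median fold of 4.70 (3.37 to 8.29) and a median distance of 34938 bp from the nearest WT H2A.Z peak. Of the mostly single copy peaks, 40.7% of those with the CTCF motif and 36.4% of those without it were called in Uhrf1hepKO, a difference of 4.36 points whose interval (-3.24 to 12.3) includes 0.

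Most motifs of liver factors differed little between distal peaks far from H2A.Z and with it. Among mostly single copy peaks, the C/EBP motif (TTGCNNAA) was in 19.1% far from H2A.Z, in 19.6% of those with it (difference -0.574 points, -3.36 to 2.21) and in 11.5% of all windows. FOXA (TGTTTAC) was in 5.6%, 6.02% and 3.75%. The AP-1 motif of JUN and FOS (TGANTCA) was in 9.06%, 9.66% and 7.46%, and that of the ONECUT factors (ATTGATT) in 4.85%, 4.17% and 4.19%. The AGGTCA element of nuclear receptors (NR in the plot of motifs) was in 29.9%, 25.7% and 13.8%, and was 4.23 points more frequent far from H2A.Z (1.08 to 7.37). The DR1 element of HNF4A and PPARA was rare, in 0.315% and 0.463% of the peaks and 0.0397% of windows. HNF1 (GTTAATNAT) was in 0.755%, 1.59% and 0.890%, with a difference of -0.832 points (-1.66 to -0.0689). The E-box CACGTG, bound by clock factors and MYC, was in 7.17%, 9.13% and 2.50% (difference -1.95 points, -3.90 to -0.0259). The D-box pattern TTANNTAA was in 6.48%, 7.34% and 9.75%. TEF, HLF and NFIL3 bind D-boxes, but the pattern allows any base at N, so its matches need not be their sites. The GATA motif (AGATAAG) was in 3.08%, 3.04% and 3.68%, and that of PU.1 (GAGGAAGT), a factor of macrophages and B cells, in 1.89%, 1.79% and 1.51%. With recurring peaks included, C/EBP was in 16.6% far from H2A.Z and 20.1% with it, and FOXA in 4.33% and 6.03%, so that both were then rarer far from H2A.Z (differences -3.50 points, -6.04 to -0.998, and -1.69 points, -3.20 to -0.268). The windows were not matched to the peaks in GC content, which was higher in the peaks.

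Motifs of CpG-rich promoters were also rarer far from H2A.Z. ETS (CCGGAAG) was in 1.32% of the mostly single copy peaks far from H2A.Z and in 4.30% of those with it, a difference of -2.98 points (-4.21 to -1.83). SP/KLF (GGGGCGGGG) was in 0.503% and 2.98% (-2.47 points, -3.49 to -1.58), NRF1 (GCGCATGCG) in 0.315% and 1.39%, and CREB (TGACGTCA), the site of the cAMP response, in 0.881% and 1.98%. For NF-Y (CCAAT), in 30% and 32.9% of the peaks and 35.0% of windows, the interval of the difference includes 0 (-2.92 points, -6.18 to 0.351). The CpG counts moved the same way. Over all distal peaks there were 1.42 CpGs per 100 bp far from H2A.Z and 3.26 with it, against 0.851 in chromosomes 1 to 19. Of all peaks far from H2A.Z, 20.7% held no CpG, where 6.60% of those with H2A.Z held none (difference 14.1 points, 11.9 to 16.1). In mostly single copy peaks there were 1.61 and 3.24 CpGs per 100 bp. Of these, 14.6% and 6.22% held no CpG (difference 8.38 points, 6.26 to 10.5). The GC content of all distal peaks was less different, with medians of 51.2% and 52.6%, against 41.9% in the genome.

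**Figure D4:**
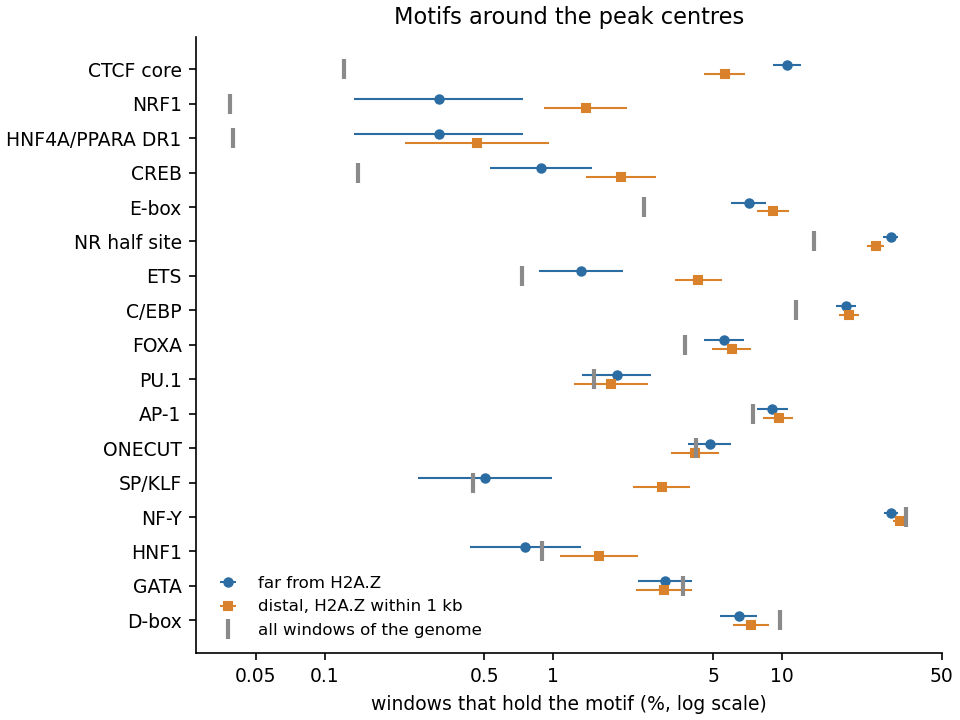
Share of 251 bp windows that hold each of 17 motifs (horizontal, %, log scale), about the centres of mostly single copy peaks far from H2A.Z (blue circles) and distal with H2A.Z (orange squares), with Wilson 95% intervals, and in all windows of chromosomes 1 to 19 (grey bars). CTCF stands at 10.5, 5.62 and 0.122%, and the orange squares of NRF1, CREB, ETS and SP/KLF lie to the right of the blue circles.

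Among mostly single copy peaks far from H2A.Z, the C/EBP motif went with a larger share called in both livers. The share was 44.6% of 303 peaks with the motif and 35.0% of 1286 without it, a difference of 9.56 points (3.46 to 15.7), and the median WT fold was 4.24 with and 3.95 without the motif. This difference was 1 of 17 that were looked at, and its relation to fold was not tested. For FOXA the shares were 37.1% and 36.8%. For ETS they lay the other way, with 14.3% of 21 peaks with the motif (interval 4.98 to 34.6%) and 37.1% of those without it (34.8 to 39.5%), and for PU.1 they were 23.3% of 30 peaks (11.8 to 40.9%) and 37.1%.

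H2A.Z of the Uhrf1hepKO liver, which the rule did not use, was also mostly far away. A Uhrf1hepKO H2A.Z peak lay within 1 kb of 104 of the 2169 peaks (4.79%, interval 3.97 to 5.78%), where 67.0% of all WT ATACseq peaks had one, and within 1 kb of 86.5% of the distal peaks with WT H2A.Z. The share depends on the limits, since it was 24.4% when the rule asked only for no overlap with WT H2A.Z, and 1.01% when Uhrf1hepKO H2A.Z peaks below their median fold were left out. The median distance was 31184 bp to a WT and 31437 bp to a Uhrf1hepKO H2A.Z peak. The share with Uhrf1hepKO H2A.Z was 12.9% of the 70 peaks with WT H2A.Z between 1 and 2 kb away (interval 6.91 to 22.7%), and 4.17% of the 1966 peaks with none within 5 kb. At the 104 peaks the median fold of the Uhrf1hepKO H2A.Z peak was 4.65, and 22 of them reached the median of that list, 5.35. Of the 104, 98 were mostly single copy, 59 (56.7%) were also called by ATACseq in Uhrf1hepKO, and they held 2.31 CpGs per 100 bp where the others held 1.38. The 5 of highest WT fold were those near Cdk5rap2, Snn, Ntpcr (18 in WT and 19.7 in Uhrf1hepKO), Nbea and Chst3. At Chst3, whose sequence with the HNF1 motif is given above, the Uhrf1hepKO H2A.Z peak was 45 bp away with a fold of 6.27, and the nearest WT H2A.Z peak was 32062 bp away.

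**Figure D5:**
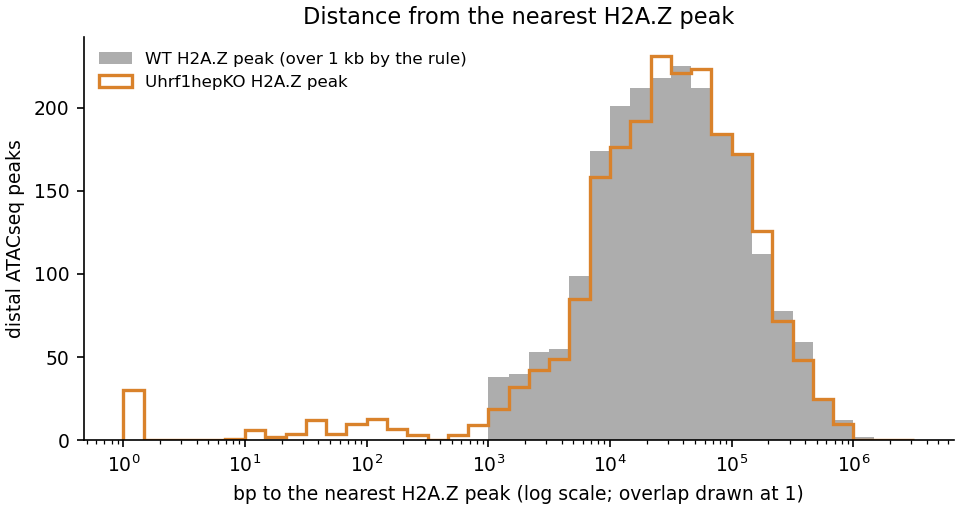
Number of distal ATACseq peaks far from WT H2A.Z (vertical) by the distance in bp from the nearest H2A.Z peak (horizontal, log scale; overlaps are drawn at 1), for WT H2A.Z in grey and Uhrf1hepKO H2A.Z as the orange line. The orange line follows the grey bars above 1 kb, where they begin by the rule, and 104 peaks lie below it, 30 of them overlapping.

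The peaks lay far from coding genes. Their centres were a median of 50145 bp from the nearest coding TSS (quartiles 20139 and 120089 bp), and 30.1% were over 100 kb away, against 20.6% of distal peaks with H2A.Z (difference 9.55 points, 6.75 to 12.3). The rule sets the lower bound of this distance at 5 kb in both groups. The centre was in an intron in 1075 peaks (49.6%, interval 47.5 to 51.7%), in intergenic sequence in 1003 (46.2%) and in an exon in 91 (4.20%). Of the distal peaks with H2A.Z, 43.7% were in introns and 8.06% in exons. In mostly single copy sequence the intron share was 53.8% far from H2A.Z and 44.6% with it, a difference of 9.16 points (5.65 to 12.6).

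In all, 1709 of the 20807 protein-coding genes on these chromosomes (8.21%) were nearest to at least 1 of the peaks, 1399 of them to 1 peak and 69 to 3 or more. The TSS of 52.3% of these genes had a WT H2A.Z peak within 5 kb and that of 31% a WT ATACseq peak, where the shares of all protein-coding genes were 54.4% and 31.4%. Genes with much sequence around them have more room for such peaks, so lists are also given as peaks per Mb of the sequence whose nearest coding TSS belongs to the list, which was 0.881 for all genes. The counts of a list describe it and were not tested. A gene is named because its TSS is the nearest, at any distance, and no link between peak and gene was tested.

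Immediate early genes, which code for factors induced soon after a stimulus, had the highest share and density of the 14 lists, with 11 of 25 genes (44.0%, interval 26.7 to 62.9%) and 3.22 peaks per Mb. The peak near Egr1, a zinc finger factor of this response, had a WT fold of 6.73, lay 9546 bp upstream and held the CTCF motif, and it had no overlap in Uhrf1hepKO. The peak near Atf3, a stress-induced leucine zipper factor, had folds of 5.40 in WT and 5.24 in Uhrf1hepKO. That near Jun, a subunit of AP-1, lay 160980 bp upstream with 5.22 and 4.79, and that near Gadd45a, a gene of the DNA damage response, had 4.98 and 3.54. The peaks near Fosl2 (4.16) and Myc (4.13) were called in WT only. The list was not particular to peaks far from H2A.Z, since 10 of its 25 genes were nearest to a distal peak with H2A.Z.

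Of the circadian clock genes, 6 of 20 (30%, interval 14.5 to 51.9%) were nearest to a peak, with 2.0 per Mb. The values for distal peaks with H2A.Z were the same, 6 of 20 genes and 2.0 per Mb. Arntl, which codes for the clock activator BMAL1, had an intronic peak 53306 bp downstream of its TSS, with folds of 5.15 in WT and 5.35 in Uhrf1hepKO and motifs of C/EBP and AP-1 within it. Nfil3, a repressor at D-boxes, had 4.60 and 3.79, and Tef, an activator at D-boxes, had 4.11 and 4.95. Bhlhe40 (3.94, 218226 bp upstream and outside the gene), Cry2 (3.90) and Hlf (3.69) had WT peaks with no overlap in Uhrf1hepKO. Those of Cry2 and Hlf, like that of Tef, were intronic and held the E-box.

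Of the hepatocyte transcription factors, 7 of 30 genes (23.3%, interval 11.8 to 40.9%) were nearest to a peak, with 2.04 per Mb. As many, 7 of 30, were nearest to a distal peak with H2A.Z, with 1.36 per Mb. The intronic peak of Nfib had folds of 5.27 in WT and 4.03 in Uhrf1hepKO. That 332727 bp upstream of Tbx3 had 4.14 and 4.12, and that of Onecut2 had 3.56 and 4.03. The peaks nearest to Cebpa (3.81, 15492 bp downstream, with the FOXA motif) and to Gata6 (3.73) were called in WT only. Of the 4 peaks nearest to Prox1, that of highest fold (4.41, with 88.3% of its 32-mers recurring) had no overlap in Uhrf1hepKO, and another, also of recurring sequence, had folds of 4.08 in WT and 3.52 in Uhrf1hepKO. Of the genes of glucose, lipid and amino acid metabolism, 12 of 59 (20.3%, interval 12.0 to 32.3%) were nearest to a peak, with 1.76 per Mb. The peak with the highest fold was 337966 bp from Insig2, a regulator of sterol synthesis (7.29 and 8.00), and 92.3% of its 32-mers recur. The peak 258063 bp upstream of Ppargc1a, the coactivator of gluconeogenesis, had 6.61 and 7.10 and no recurring 32-mer. Gckr, the regulator of glucokinase, had 4.97 in WT only, and the fatty acid elongases Elovl5 and Elovl6 had 4.37 and 4.18 in WT with 3.55 and 3.95 in Uhrf1hepKO. The peak near Pnpla3, a lipase gene, had 4.26 and 3.81. At Elovl5 a Uhrf1hepKO H2A.Z peak lay 166 bp from the peak, and the nearest WT H2A.Z peak was 5726 bp away.

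Of the plasma protein genes, 3 of 62 (4.84%, interval 1.66 to 13.3%) were nearest to a peak: C8b of complement (4.43), transferrin (Trf, 4.06, with motifs of FOXA and C/EBP) and fibrinogen alpha (Fga, 3.72, 5614 bp upstream), and these 3 peaks, the highest of each gene, had no overlap in Uhrf1hepKO. The C8b peak lay 282192 bp upstream and outside the gene. The list had 6 peaks in all, 1 of which did overlap. Their density, 1.10 per Mb, was above that of all genes, and the median gene of the list had 32.7 kb of sequence where the median of all genes had 45.9 kb. Of the xenobiotic and bile acid genes, 5 of 40 (12.5%, interval 5.46 to 26.1%) were nearest to a peak, at 2.30 per Mb, the density next below that of the immediate early genes. Beside Abcb11, whose peak is mitochondrial sequence, these were the sterol transporter Abcg5 (4.30), Por, the electron donor of cytochromes P450 (3.92), Cyp2c29 (3.89 in WT and 3.43 in Uhrf1hepKO, with 90.1% of 32-mers recurring) and Aox3 (3.59 and 3.36). Only 4 of the 7 peaks of this list were mostly single copy, and the order of the lists was not computed for such peaks alone. None of its 40 genes was nearest to a distal peak with H2A.Z. Of the hormone and growth factor genes, 7 of 37 (18.9%) had a peak at 0.653 per Mb. Distal peaks with H2A.Z were nearest to 6 of the 37, at 1.12 per Mb. None of the 7 peaks far from H2A.Z overlapped a Uhrf1hepKO peak, where 1317 of all 2169 did not. They included those near Tfr2 (4.37), the receptor Igf1r (4.17), Irs2 (3.89), Igfbp2 (3.77), Igf1 (3.61) and Thrb (3.57, 257340 bp upstream, with the CTCF motif).

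The study's list of liver enriched genes, which it took from human liver protein data, is used as its supplement gives it, with 258 names. It had 18 of 256 genes found in the annotation used here (7.03%, interval 4.49 to 10.8%) nearest to a peak, at 1.15 per Mb. It held Abcb11, Gckr, C8b, Prox1, Tfr2 and Orm2, an acute phase protein gene whose peak had a WT fold of 5.49, the CTCF motif and no overlap in Uhrf1hepKO. Of the 2169 peaks, 24 (1.11%, interval 0.745 to 1.64%) had a liver enriched gene as the nearest coding gene, and 0.635% of the distal peaks with H2A.Z did (0.345 to 1.16%). The share was 0.746% of all WT ATACseq peaks (0.595 to 0.933%). It was 1.72% of the peaks near a TSS and far from H2A.Z (1.06 to 2.77%). The study's cell proliferation list had 62 of 567 genes (10.9%, interval 8.62 to 13.8%) at 0.922 per Mb. For distal peaks with H2A.Z it had nearly as many, 61 genes (10.8%) at 0.947 per Mb. Rfc3 (11.4 in WT and 15.8 in Uhrf1hepKO) was nearest to a telomere repeat peak and Smc5 to the AT-rich family. The single copy examples were Ppargc1a, Neil3, a DNA glycosylase gene (6.46 and 5.62, in an exon, with the CTCF motif), Fignl1, a recombination factor gene (6.12 and 4.48), and Fign (5.96, in WT only).

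The shares of markers of other cells have wide intervals, all of which include the 8.21% of all protein-coding genes. For endothelial cells, 3 of 22 genes were nearest to a peak (13.6%, interval 4.75 to 33.3%), at 0.990 per Mb. These were Stab2, the hyaluronan receptor of sinusoids, with an intronic peak of 5.49 in WT and 5.02 in Uhrf1hepKO, Cdh5 (3.63) and Erg (3.63). The Cdh5 peak lay 556843 bp upstream of its TSS and outside the gene. The Stab2 peak lay 1930 bp from a WT H2A.Z peak and overlapped one in Uhrf1hepKO. For Kupffer cells 2 of 17 genes were nearest to a peak (11.8%, at 1.19 per Mb), among them Marco (3.44). For stellate cells and cholangiocytes these were Col3a1 (3.84, all 32-mers recurring) and Sox9 (3.73 and 3.65) of 18 genes (11.1%, at 0.917 per Mb). The Sox9 peak lay 280673 bp from its TSS and outside the gene. For lymphocytes the genes were Ets1 (5.33 and 4.46) and Ikzf1 (3.52) of 19 (10.5%, at 0.732 per Mb). Of 19 genes of chromatin architecture, only Ctcf itself was nearest to a peak (5.26%, at 0.562 per Mb), with a WT fold of 5.99. That peak lay 14005 bp upstream of Ctcf, in an intron of a neighbouring gene, and held the CTCF motif.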

How the data were processed

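The 4 deposited peak lists were used (WT and Uhrf1hepKO, ATACseq and H2A.Z, 1 library each). The authors used BWA-MEM for alignment to GRCm38.p4, then PICARD, and MACS2 on each library by itself, in broad mode for ATACseq. The MACS2 version, a control, a shift of ATACseq reads, the treatment of reads with several placements and the mode of the H2A.Z calls are not given in the sources used here. FastQC 0.11.5, Trimmomatic, BWA and Picard are named in the submitters' processing notes. For each peak the deposited lists give a score (10 times the −log10 q-value), a fold and −log10 p- and q-values. For H2A.Z they also give the offset of the summit. The fold is the caller's enrichment over local background. In the ATACseq lists it is smaller than the plain ratio of reads to background, as with the WT fold of 3.52 for 8 reads over 1.56. Folds are not scaled between libraries.

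TSSs came from GENCODE vM21 and sequence from RefSeq, GRCm38. Distances between peaks ran from edge to edge, overlaps needed 1 bp, and every position is 1-based. Recurring 32-mers are those with more than 1 copy over both strands. Repeat-masked bases are lower-case bases of the reference. Motifs were exact matches on both strands in the 251 bp about the peak centre. A motif that a peak is said to hold can therefore lie outside the called peak. The C/EBP motif and the D-box can overlap, as can AGGTCA and DR1.

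The members, gene lists and motifs were chosen with earlier results of these data known. Named were the nearest genes of the 10 peaks of highest fold, of the 10 highest also called in Uhrf1hepKO with under 50% recurring 32-mers, of the 5 highest with Uhrf1hepKO H2A.Z, up to 6 genes per list by fold, the 10 genes with most peaks and the peaks at the 2 limits. Classes of recurring sequence beyond the 50% limit, families of shared 14-mers, the chromosome counts, the 5 highest peaks without overlap and the set without recurring 32-mers were added later. Steps were tested on simulated data. Python 3.11.15, numpy 2.4.6, pandas 2.3.3, numba 0.67.0, pysam 0.24.0 and matplotlib 3.10.9 were used. Results under 88 alternative settings are in the closing section. A marker gene and a sequence are not reported here.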

Additional observations from a re-analysis of the deposited data

How the results depend on the processing

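No paired analysis was possible because each group has 1 library. Of 88 values recomputed with 1 choice changed, 41 moved by less than counting error (for the number of peaks, by less than 1.5 times) and 47 moved further. The causes were not tested beyond what each setting does. When peaks below the median fold were dropped, there were 707 peaks, 64.8% of them also in Uhrf1hepKO, 6.36% with Uhrf1hepKO H2A.Z, 1.67 CpGs per 100 bp, 14.9% with the CTCF motif and 25.3% repeat-masked bases. With a −log10 q of at least 2 these were 1209, 55.3%, 6.04%, 1.51, 12.0% and 27.4%. Without peaks of 50% or more recurring 32-mers, 36.9% were in Uhrf1hepKO and 6.16% had its H2A.Z, with 1.61 CpGs per 100 bp, 53.8% in introns, 10.5% with CTCF, a median distance of 43719 bp and 12.5% repeat-masked. Without any recurring or mitochondrial 32-mer, a setting added after the data were seen, 1367 peaks were left, with 35.0%, 6.07%, 1.71, 55.7%, 11.5%, 42210 bp and 5.47%. With no more than an absence of overlap with WT H2A.Z required, the share in Uhrf1hepKO was 43.2%, that with its H2A.Z 24.4%, and the others 1.90 CpGs per 100 bp, 45317 bp and 25% repeat-masked. With none within 5 kb, 30.5% was repeat-masked. With a TSS limit of 2 kb there were 1.48 CpGs per 100 bp, 43633 bp and 28.4% repeat-masked, with 10 kb 1.38, 62630 bp and 30.2%, and with TSSs of every transcript 1.34, 45.1% in introns, 56046 bp and 31.6%. Sharing of 50% of both peaks gave 31.7% in Uhrf1hepKO, and Uhrf1hepKO H2A.Z peaks without those below their median fold gave 1.01%. In a window of 250 bp on either side there were 1.35 CpGs per 100 bp and 27.0% repeat-masked bases. Leaving out replicates was not possible with 1 library per group.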

Other observations

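The same rule applied to the Uhrf1hepKO lists gave 2715 of 10117 ATACseq peaks (26.8%, interval 26.0 to 27.7%), whose medians were 161 bp for width and 3.74 for fold in that list. At least 50% of the 32-mers recurred in 32.1% of them. Of these 2715 peaks, 895 (33.0%) overlapped a WT ATACseq peak and 220 (8.10%) had a WT H2A.Z peak within 1 kb. The CTCF motif was in 7.77% of them (interval 6.82 to 8.84%), in 8.27% of those that overlapped a WT ATACseq peak and in 7.53% of those that did not. The WT and Uhrf1hepKO counts come from 1 library each, and whether they differ between genotypes was not tested.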
